A study of Mus musculus with 8 samples.

Results

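Loss of Brg1 in unstimulated cortical neurons was described by comparing 2 deposited lists of open-chromatin peaks, WT basal and cKO basal, on chromosomes 1 to 19. The assay was ATAC-seq: the Tn5 transposase inserts adapters wherever DNA is accessible, and the lists hold peaks of nucleosome-free fragments. Every peak of both lists was a member, 33328 in WT basal and 19921 in cKO basal, together 53249 of the 100484 peaks in the 4 lists of the series. A peak was called unmatched when it overlapped no peak of the other list by at least 1 bp. The neurons were primary cultures of embryonic mouse cortex (E16.5), and neither group received KCl. The labels call the WT cells Brg1 WT, without saying whether they carried Cre or floxed alleles. The cKO cells carried both floxed copies of Brg1 and Cre driven by BAF53b (BAF53bCre Brg1F/F). Because BAF53b is a subunit found in neurons, other cell types of such a culture would keep Brg1. The WT KCl and cKO KCl lists, used below as further lists, come from cultures depolarised with 50 mM KCl for 1 h on day 6 in vitro. TTX (1 µM, on day 5) and APV (100 µM) are named for these depolarised cultures. The labels do not say whether the basal cultures received TTX or APV. Each list stands for 2 libraries of 50000 cells, so there was no replicate error and no test between genotypes. Intervals are exact 95% binomial intervals (Clopper-Pearson) and cover counting error only.

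Brg1 (Smarca4) is an ATPase of the BAF complexes, which use ATP to slide or evict nucleosomes and so keep regulatory DNA accessible. Neurons assemble a form of the complex with BAF53b in place of its progenitor counterpart, and Brm (Smarca2) is the alternative ATPase. CpG-rich promoters are generally held open in most cell types, whereas enhancers, which lie inside genes or between them, are opened more selectively. In a bulk list, fewer cells with an open site and a site less open in each cell cannot be told apart.

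The promoters below are shown because the strongest gene-end peaks without a counterpart in the other genotype covered them in whole or in part. They are the 250 bases before the annotated start, 5′ to 3′ in the gene's direction, from RefSeq on GRCm38.p6. Capitals mark matches to the motifs given with the promoter results. The first 3 lay under peaks of WT basal and the other 3 under peaks of cKO basal.

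Parp2 promoter, plus strand, chr14:50807666-50807915: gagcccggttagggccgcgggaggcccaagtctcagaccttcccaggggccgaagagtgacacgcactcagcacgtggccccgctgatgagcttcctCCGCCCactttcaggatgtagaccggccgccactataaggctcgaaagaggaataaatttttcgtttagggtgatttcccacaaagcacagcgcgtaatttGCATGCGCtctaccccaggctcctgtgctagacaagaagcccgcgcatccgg
Acbd5 promoter, plus strand, chr2:23067951-23068200: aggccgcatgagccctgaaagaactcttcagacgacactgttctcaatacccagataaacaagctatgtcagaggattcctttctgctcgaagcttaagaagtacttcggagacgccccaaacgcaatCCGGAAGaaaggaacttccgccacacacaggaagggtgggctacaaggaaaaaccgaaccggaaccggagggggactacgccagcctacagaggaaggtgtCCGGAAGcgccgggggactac
Esd promoter, plus strand, chr14:74732047-74732296: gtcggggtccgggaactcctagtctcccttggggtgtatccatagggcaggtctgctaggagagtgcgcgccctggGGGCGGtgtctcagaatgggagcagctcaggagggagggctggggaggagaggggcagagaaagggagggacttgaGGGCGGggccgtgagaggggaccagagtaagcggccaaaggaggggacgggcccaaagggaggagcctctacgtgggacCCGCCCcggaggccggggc
Tmem216 promoter, minus strand, chr19:10555764-10556013: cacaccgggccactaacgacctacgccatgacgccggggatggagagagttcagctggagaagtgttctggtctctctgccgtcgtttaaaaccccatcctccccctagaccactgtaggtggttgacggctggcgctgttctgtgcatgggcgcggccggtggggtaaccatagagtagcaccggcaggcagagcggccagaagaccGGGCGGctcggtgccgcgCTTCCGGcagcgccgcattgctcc
Ccdc173 promoter, minus strand, chr2:69789487-69789736: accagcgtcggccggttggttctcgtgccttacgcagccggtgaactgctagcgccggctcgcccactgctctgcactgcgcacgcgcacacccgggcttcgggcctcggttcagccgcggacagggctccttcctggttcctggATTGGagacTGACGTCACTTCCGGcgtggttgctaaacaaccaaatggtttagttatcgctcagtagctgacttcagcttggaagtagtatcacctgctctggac
Plekhm3 promoter, minus strand, chr1:64956825-64957074: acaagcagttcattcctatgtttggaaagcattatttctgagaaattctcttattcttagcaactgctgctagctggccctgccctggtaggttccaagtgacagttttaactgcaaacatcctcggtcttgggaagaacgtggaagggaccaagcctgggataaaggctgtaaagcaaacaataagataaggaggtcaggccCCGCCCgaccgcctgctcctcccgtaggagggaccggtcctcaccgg

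In the Parp2 promoter the capitals are 1 GGGCGG on the opposite strand and 1 GCATGCGC. The Acbd5 promoter held 2 copies of CCGGAAG and the Esd promoter 3 of GGGCGG. Among the cKO basal promoters, Tmem216 held 1 GGGCGG and 1 CCGGAAG, and Plekhm3 1 GGGCGG. The Ccdc173 promoter held 1 match each to CCAAT, TGACGTCA and CCGGAAG within a short stretch. Neither set of 3 thus carried 1 common motif of those searched.

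The recovered background, which stood in for depth, was alike in both lists. The read totals are unknown, and the part of depth in the list lengths was not tested. The most frequent local background was 9.30 fragments in WT basal and 9.47 in cKO basal, and at that background the weakest peaks called held 21 and 22 fragments. The list lengths were 33328 and 19921, covering 11.1 and 6.69 Mb. Median widths of 271 and 275 bp and median folds over the local background of 2.82 and 2.88 were close, where fold is the authors' own value per peak. The Smarca4 gene end had a peak of 53 fragments in WT basal and of 63 in cKO basal, and it does not check the deletion because the floxed part is not known from the labels. Of the pan-neuronal markers, 5 of 6 had a gene-end peak in both lists: Snap25, Syt1, Map2, Tubb3 and Actl6b (BAF53b). Of the 5 excitatory markers, Neurod6 had one in both lists and Tbr1 in cKO basal alone, which makes 1 in WT basal and 2 in cKO basal. None of the 4 microglia markers had one in either list. Of the 4 inhibitory markers Dlx1 had one in cKO basal alone, and Gad1, Gad2 and Slc32a1 had none. Olig1, Olig2 and Mbp of the 4 oligodendrocyte markers and Flt1 of the 3 vascular markers had one in both lists. The astrocyte markers Gfap, Aldh1l1 and Slc1a3, 3 of 4, had a gene-end peak in WT basal and none in cKO basal. Over all genes, 12.2% had one in WT basal alone and 4.33% in cKO basal alone. With WT basal shortened to its 19921 peaks of highest fold, these shares were 7.24% and 7.80%, and Aldh1l1 had none in either list.

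In the lists as deposited, 68.9% of WT basal peaks (22967 of 33328) had no cKO basal peak, and 47.5% of cKO basal peaks (9470 of 19921) had no WT basal peak. Gene ends, meaning sites no more than 1 kb from the annotated start or end of a protein-coding gene, were matched far more often than other sites. Of WT basal peaks, 35.8% of 10392 at gene ends (34.9 to 36.7) were unmatched, against 82.1% of 12409 inside genes and 86.0% of 10527 between genes. Of cKO basal peaks the shares were 18.7% of 8233 gene ends, 65.5% of 6629 intragenic and 71.0% of 5059 intergenic peaks. Most WT basal peaks with a counterpart had exactly 1 (10007), and 354 overlapped more than 1 cKO basal peak. Unmatched peaks were rarely near misses: 8.16% of those in WT basal and 13.8% of those in cKO basal lay within 1 kb of a peak of the other list, and the median gaps were 24.6 and 12.7 kb.

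At equal list length the overall unmatched shares of the 2 lists are close by construction, since most matched peaks have 1 counterpart, and the shares by site class are the values of interest. When WT basal was shortened to its 19921 peaks of highest fold, 55.9% of its peaks and 55.0% of those in cKO basal were unmatched. The 13407 WT basal peaks below that length had folds of at most 2.72, and 88.2% of them had no cKO basal peak. By site class, 25.2% of gene ends (24.2 to 26.1), 72.6% of intragenic and 80.7% of intergenic WT basal peaks were unmatched. The corresponding cKO basal shares were 26.2% (25.3 to 27.2), 73.2% and 78.0%. For intergenic peaks the intervals did not meet (79.7 to 81.8 against 76.8 to 79.1), while for gene ends and intragenic sites they overlapped.

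The composition of the equally long lists differed little. Gene ends made up 40.1% of WT basal and 41.3% of cKO basal peaks, intragenic sites 31.1% and 33.3%, and intergenic sites 28.8% and 25.4%. The small gene-end difference changed its sign with the ranking, at −1.24 percentage points by fold and 0.632 by −log10 p. Among the 1000 peaks of highest fold, 84.5% lay at a gene end in WT basal (82.1 to 86.7) and 80.8% in cKO basal (78.2 to 83.2).

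Shorter tops of both lists were then compared with each other and with the whole other list. Of the top 1000 WT basal peaks, 34.8% were not among the top 1000 of cKO basal, but 0.4% had no peak anywhere in that list. For the top 1000 of cKO basal the values were 34.8% and 0.3%. At 5000 peaks each, 30.8% and 30.4% were unmatched among the tops, and 10.7% and 7.76% in the whole other list. The share against the whole list can only be the lower of the 2, and the whole cKO basal list is shorter than that of WT basal. The fold at the end of the top 1000 was 5.63 in WT basal and 4.77 in cKO basal, and at the end of the top 5000 it was 3.74 and 3.34.

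**Figure D1:**
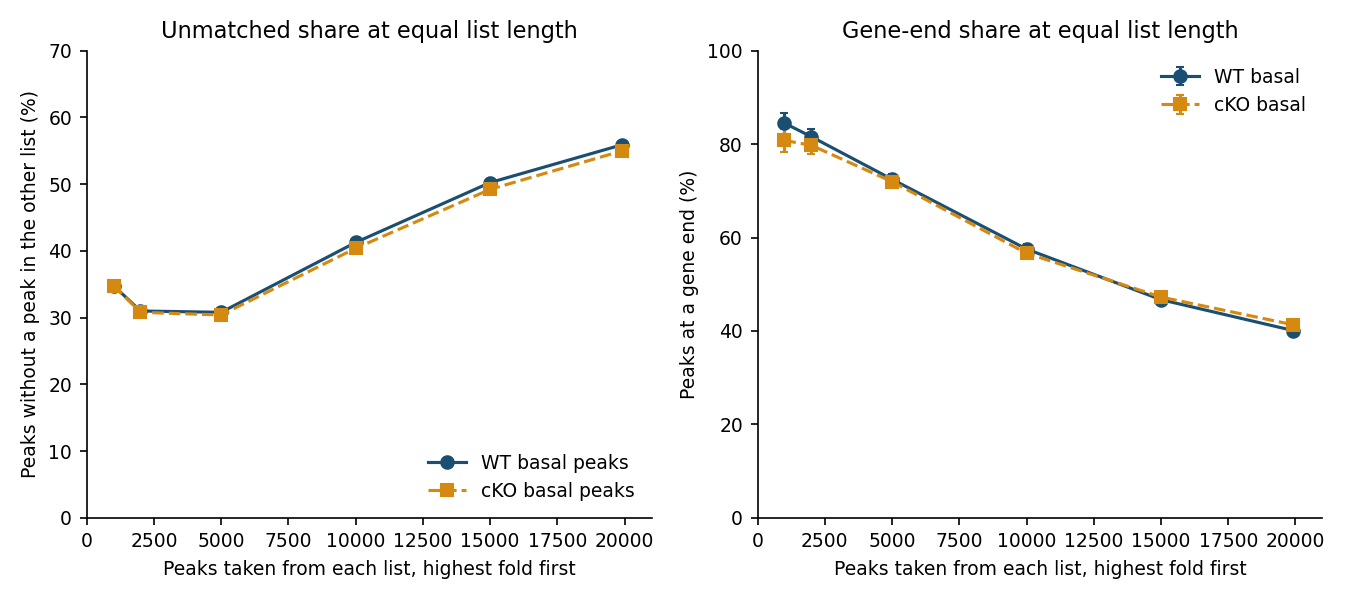
Left, percent of peaks without a peak in the equally long other list; right, percent of peaks at a gene end; both against the number of highest-fold peaks taken from each list (points; bars on the right are 95% intervals). The unmatched share of both lists is lowest near 5000 peaks (30.8% and 30.4%) and reaches 55.9% and 55.0% at 19921, while the gene-end share drops from 84.5% and 80.8% at 1000 peaks to 40.1% and 41.3%.

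Gene ends were matched more often than other sites at every level of fold. Each list was divided into 10 bins of equal number by fold. In the WT basal bin of highest fold, 2.55% of gene ends, 9.37% of intragenic and 12.01% of intergenic peaks were unmatched. In the bin of lowest fold the shares were 77.1%, 91.8% and 91.9%. The cKO basal bin of highest fold had 0.314%, 2.30% and 4.26% unmatched, and that of lowest fold 56.0%, 81.6% and 79.6%. With each bin weighted by its number of gene-end peaks, other sites exceeded gene ends by 25.1 percentage points in WT basal (60.9% and 35.8%, counting error 1.10). In cKO basal they did so by 28.0 (46.7% and 18.7%, counting error 1.16). Without regard to fold these differences were 48.1 and 49.2 points. Widths also differed between the classes, and their part in the match was not tested: unmatched WT basal peaks had a median of 269 bp at gene ends and 242 bp elsewhere, matched ones 449 bp at gene ends, 353 bp inside genes and 324 bp between them.

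**Figure D2:**
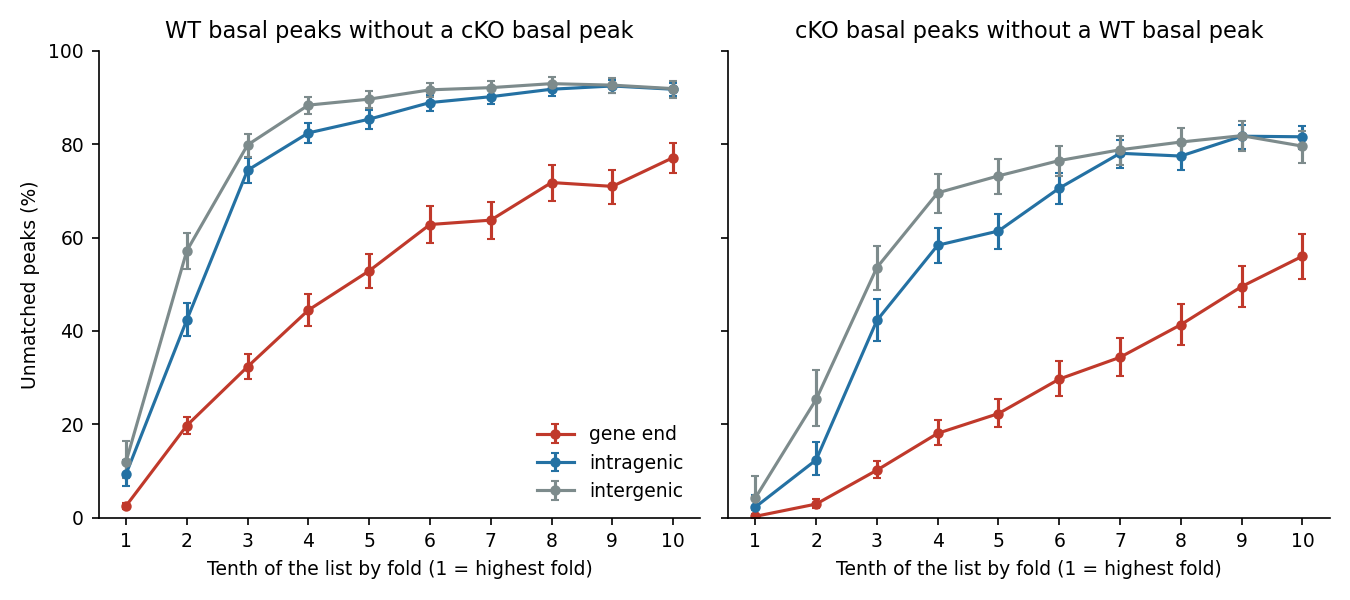
Percent of peaks without a counterpart (points, with 95% intervals) in 10 bins of equal peak number by fold, for WT basal (left) and cKO basal (right), by site class. The gene-end line lies below the other 2 in all bins, from 2.55% to 77.1% in WT basal and from 0.314% to 56.0% in cKO basal.

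The 8 strongest WT basal gene ends without a cKO basal peak held 52 to 74 fragments. The first was Parp2, a poly(ADP-ribose) polymerase that senses DNA strand breaks, at position 50807497 to 50808041 of chromosome 14 and rank 204 of WT basal. Its peak held 74 fragments in WT basal (fold 7.23), 47 in WT KCl and 35 in cKO KCl. The nearest cKO basal peak was 28.7 kb away. The peak thus lay over the whole printed promoter and was missing from 1 of the 4 lists.

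Mettl14, a subunit of the RNA adenosine methyltransferase, had 58 fragments in WT basal, 35 in WT KCl and 54 in cKO KCl (chromosome 3, 123385879 to 123386159). Acbd5, a peroxisomal protein that binds acyl-CoA, had 56, 34 and 48 in that order (chromosome 2, 23067871 to 23068298), and here a cKO basal peak lay 0.621 kb away. Esd, an esterase acting on S-formylglutathione, had 55, 32 and 39 (chromosome 14, 74732016 to 74732403). Each of these sites was therefore open in the KCl-treated cKO culture. The other 4 were Lurap1l (64 fragments in WT basal), the acyl-protein thioesterase gene Lypla1 (58), Hmgxb4 (55) and the steroid receptor RNA activator gene Sra1 (52), and all of them had a peak in both KCl lists.

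Away from gene ends, the 8 strongest WT basal peaks without a counterpart held 50 to 56 fragments. They lay inside Zswim6, Vps50, which serves endosomal recycling, and Chd8, a chromodomain remodeller gene, and nearest to Mrpl39 (676 kb away), Sesn2, Arl4a, Arrdc3 and Malt1. The Chd8 site had 50 fragments in WT basal, 33 in WT KCl and 41 in cKO KCl. All 8 overlapped a cKO KCl peak, and those at Arl4a, Arrdc3 and Chd8 a WT KCl peak too. Of the 16 sites of both kinds, 16 were found in cKO KCl and 11 in WT KCl.

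The cKO basal peaks without a WT basal counterpart were weaker at gene ends, with 39 to 49 fragments. They had to miss a list of 33328 peaks, whereas those of WT basal had to miss one of 19921. The part of list length in this difference was not tested. Tmem216, a protein of the ciliary transition zone, had 49 fragments in cKO basal, 27 in WT KCl and 38 in cKO KCl (chromosome 19, 10555649 to 10555999). Ccdc173, a coiled-coil protein gene, had 46, 39 and 32 (chromosome 2, 69789507 to 69789894), and Plekhm3 had 45, 28 and 27 (chromosome 1, 64956480 to 64956947). These 3 sites were missing from WT basal alone. The same held for the mitochondrial genes Mrpl15, a ribosomal protein (42, 40 and 34), and Sdhc, a succinate dehydrogenase subunit (39, 32 and 29). Dpyd, which breaks down pyrimidines, A430033K04Rik and the receptor gene Gpr176 had a peak in cKO KCl and none in WT KCl, and a WT basal peak lay 0.540 kb from that of Gpr176.

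Outside gene ends, the strongest cKO basal peak without a counterpart held 63 fragments at rank 168, 125 kb from 4933412E24Rik on chromosome 15, with 42 fragments in cKO KCl and no WT KCl peak. A site 31.3 kb from Sfi1, a centrin-binding protein gene, lay at 3100089 to 3100572 of chromosome 11. It held 61 fragments in cKO basal, 63 in cKO KCl and 23 in WT KCl, and a WT basal peak lay 1.10 kb away. The others lay inside Nxpe4, the choline transporter gene Slc44a1 and Tafa2, and nearest to Nemf and Alkbh8. Alkbh8 was nearest to 2 sites of chromosome 9, 313 kb away (3022075 to 3022282) and 334 kb away (3001350 to 3001552). A WT basal peak lay 0.501 kb from the farther one. The sequences of the Sfi1 and Alkbh8 sites, and whether they are repeats, were not examined. For Tafa2 a WT basal peak was 0.211 kb away. The Nxpe4 site was the 1 site of the 16 in neither KCl list, and 9 of the 16 were in both.

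**Figure D3:**
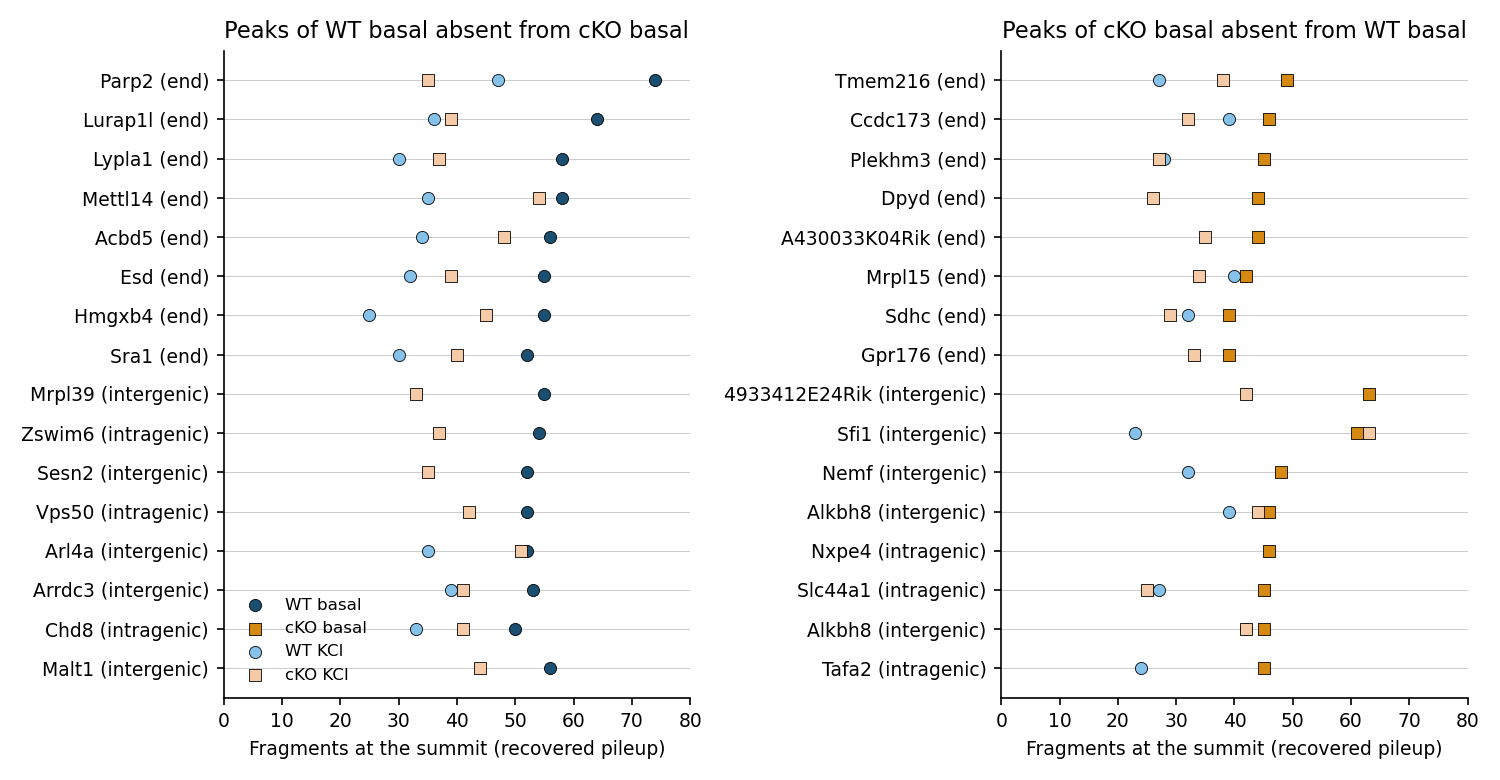
Fragments at the summit for the 8 gene-end and 8 other unmatched peaks of highest fold in WT basal (left) and cKO basal (right), one row per peak, with the values of overlapping peaks in the KCl lists; a missing marker means no overlapping peak. Every WT basal site has a cKO KCl marker, and the basal markers span 50 to 74 fragments on the left and 39 to 63 on the right.

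Unmatched peaks of high rank were few in both directions. Of the top 500 peaks, 1 of WT basal and 2 of cKO basal were unmatched in the whole other list, and of the top 2000, 30 (1.5%, 1.01 to 2.13) and 18 (0.9%, 0.534 to 1.42). The whole other list was the shorter one for WT basal peaks and the longer one for cKO basal peaks. Of those 30 WT basal peaks, 27 overlapped a cKO KCl peak and 22 a WT KCl peak.

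Shared sites were compared by their strength in 9502 pairs in which 1 peak matched 1 peak. The median fold was 3.54 in WT basal and 3.25 in cKO basal, the median pileup 42 and 38 fragments, and the WT basal fold was the higher one in 68.3% of pairs. Shared peaks thus stood higher over the background in WT basal, and the part of this gap in the difference in list length was not tested. Across pairs, Spearman's rho of the folds was 0.735 (0.751 at gene ends, 0.665 inside genes and 0.587 between them), a description across sites that share 2 lists. Summits lay a median of 51 bp apart.

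Ranks within the 5944 pairs whose peaks were gene ends in both lists moved by a median of 698.5 places, and 139 pairs (2.34%) moved by more than 50% of the ranking. The largest move down in cKO basal was at Cry1, a repressor of the circadian clock (chromosome 10, 85184955 to 85185574). Cry1 had 66 fragments in WT basal and 28 in cKO basal, ranks 600 and 5637, with 47 in WT KCl and 60 in cKO KCl. The other large moves down were at Rras2, a Ras-like GTPase gene (61 and 28 fragments), the growth factor gene Vegfc (51 and 26), the calpain gene Capn7 (48 and 25), Alg10b, a glucosyltransferase of N-glycosylation (59 and 29), and Letm2 (63 and 31). In each of these 6 genes, cKO KCl held more fragments than cKO basal. The 6 were chosen for their fall in cKO basal, so a higher value in another list was favoured by the choice.

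Moves up in cKO basal were led by the zinc-finger gene Zbtb41, with 25 fragments in WT basal and 42 in cKO basal, ranks 5645 and 1472. WT KCl had 33 and cKO KCl 53 at that gene end. The small GTPase gene Rap1b had 30 and 54 fragments, Tgoln1, a trans-Golgi protein gene, 29 and 46, and Cab39, an adaptor of the kinase LKB1, 34 and 45. Syce1, a synaptonemal complex gene, had 26 and 41, and Fbxo10 38 and 49. At 5 of these 6 gene ends, Zbtb41 being the exception, cKO KCl held fewer fragments than cKO basal or the same number. The 6 were chosen for their rise in cKO basal, so a lower value in another list was favoured by the choice.

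The KCl lists were used as 2 further lists in which the unmatched basal sites could be looked up. All lists were set to nearly equal length, with 19847 peaks taken from each KCl list. Of the 11141 unmatched WT basal peaks, 15.8% had a peak in WT KCl and 20.6% (19.8 to 21.3) in cKO KCl. Unmatched WT basal sites were thus found more often in cKO KCl than in the equally long KCl list of their own genotype. Of the 10960 unmatched cKO basal peaks, 13.6% and 14.98% (14.3 to 15.7) did, and of the 8780 shared WT basal peaks 79.1% and 86.5%. At gene ends the shares were 42.4% and 48.7% for WT basal, 34.3% and 36.9% for cKO basal, and 87.8% and 92.4% for shared peaks. In neither KCl list were 72.5% of unmatched WT basal, 77.8% of unmatched cKO basal and 9.01% of shared peaks.

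Side by side, the comparisons among the 4 lists at 19847 peaks each gave similar unmatched shares. Between WT basal and cKO basal they were 55.8% and 54.9%. Between WT basal and WT KCl they were 56.2% and 55.4%, and between cKO basal and cKO KCl 52.9% and 53.7%. Between WT basal and cKO KCl they were 50.2% and 50.3%. These comparisons share lists, so they are not independent of each other.

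**Figure D4:**
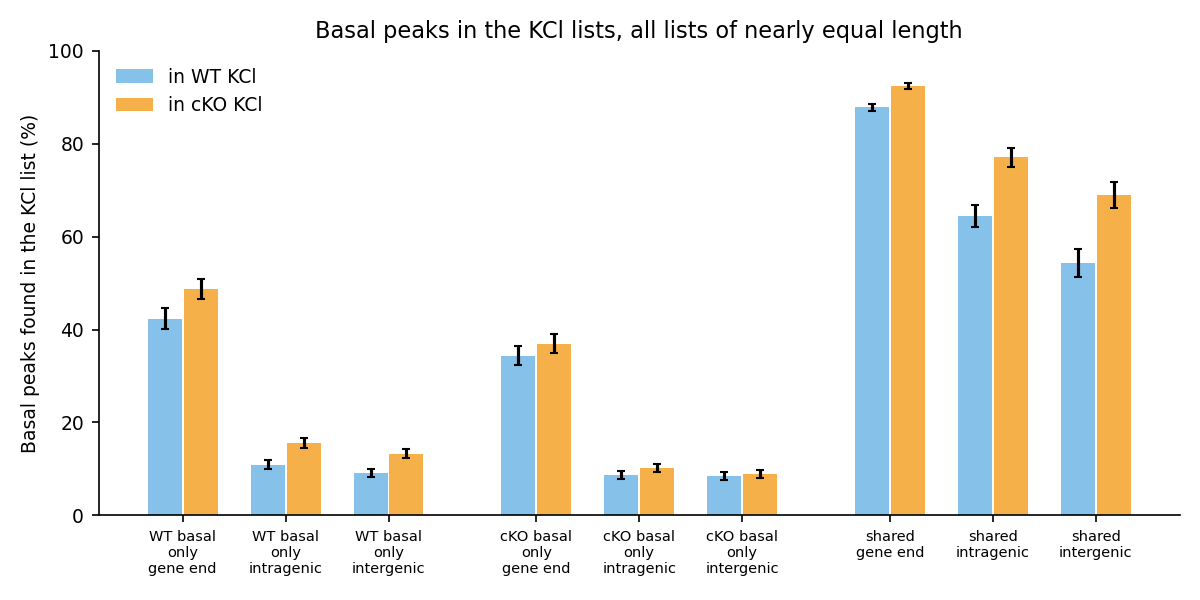
Percent of basal peaks (bars, with 95% intervals) that overlap a peak of WT KCl (blue) or cKO KCl (orange), for WT basal peaks without a cKO basal peak, cKO basal peaks without a WT basal peak, and shared peaks, by site class. Unmatched gene ends reach 34.3% to 48.7%, shared gene ends 87.8% and 92.4%, and unmatched sites away from gene ends stay below 16%.

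Promoters were divided by the lists in which they had a peak. Of 20063 distinct promoters of 16437 protein-coding genes, each 300 bases long (250 before and 50 after the start), 5600 had a peak in both equally long lists, 1387 in WT basal only, 1124 in cKO basal only and 11952 in neither. The table used has no entries for chromosome 18. Median GC content was 64.7% in shared promoters, 60.0% in WT basal only, 63.0% in cKO basal only and 51.3% where neither list had a peak. The median ratio of observed to expected CpG was 0.842, 0.766, 0.765 and 0.296 in the same order. Within 5 bins of fold, unmatched WT basal promoters had median GC contents of 57.7% to 60.7% and matched ones 64.0% to 65.0%, so the gap held at matched fold. For cKO basal the ranges were 60.3% to 64.0% and 64.3% to 65.0%. In the bin of lowest fold they nearly met, at 64.0% unmatched and 64.3% matched.

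Among gene ends, peaks no more than 1 kb from a start with a listed promoter were matched more often than the rest. The listed promoters cover 16437 of the 20665 genes, so the rest can hold starts of other genes beside opposite ends. At equal length 22.1% of 6160 WT basal peaks at a listed start (21.1 to 23.2) were unmatched, against 37.9% of 1586 in the rest (35.5 to 40.3). For cKO basal the shares were 22.4% of 6273 and 40.7% of 1700. Peaks at listed starts also had the higher fold, with medians of 3.69 and 3.34 in WT basal.

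Motifs were searched on both strands of the 300 bases as exact letters. CCAAT, bound by NF-Y, was held by 45.0% of shared promoters (43.7 to 46.3), 32.7% of WT basal only (30.3 to 35.3), 28.5% of cKO basal only (25.8 to 31.2) and 38.1% of all. GGGCGG, bound by SP and KLF factors, was held by 76.5%, 60.9%, 67.3% and 47.0% in that order. CCGGAAG, an ETS motif, was held by 22.2%, 19.5%, 14.9% and 11.9%. These 3 motifs were thus most frequent in shared promoters, and the first was less frequent in both unmatched sets than in all promoters.

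The TATA motif TATAAA went the other way, at 3.82% of shared, 8.29% of WT basal only, 6.58% of cKO basal only and 12.7% of all promoters. TGANTCA, the AP-1 motif of the Fos and Jun proteins, was held by 3.21%, 4.61%, 4.72% and 7.06%, with overlapping intervals for the 2 unmatched sets. TGACGTCA, the CRE bound by CREB, was held by 3.96%, 2.81%, 3.02% and 2.30%. GCATGCGC (NRF1) stood at 6.27%, 5.48%, 5.43% and 3.55%, ATGGCGGC (YY1) at 6.13%, 5.48%, 4.36% and 3.09%, and CTCGCGAG (ZBTB33-like) at 2.75%, 2.38%, 1.60% and 1.21%. GTTGCCA, an RFX motif, stood at 4.23%, 4.04%, 2.94% and 4.22%. For 8 of these motifs the intervals of WT basal only and cKO basal only overlapped, GGGCGG and CCGGAAG being the exceptions.

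**Figure D5:**
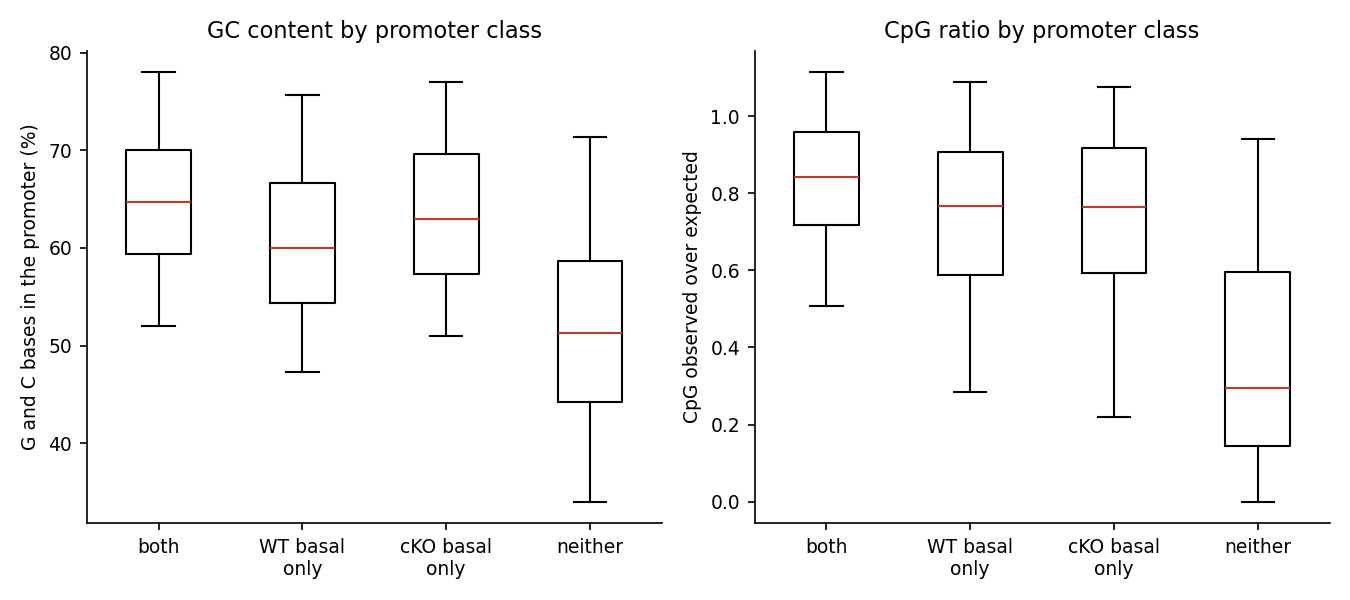
GC content (left, percent) and ratio of observed to expected CpG (right) of promoters with a peak in both equally long lists, in WT basal only, in cKO basal only or in neither; boxes span the quartiles with the median in red, and whiskers reach the 5th and 95th percentiles. The median GC contents are 64.7%, 60.0%, 63.0% and 51.3%, so both unmatched sets lie nearer to the shared set than to promoters without a peak.

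Counted by gene, peaks within 50 kb of the gene body followed the list length. In the deposited lists 67.9% of genes had fewer peaks in cKO basal and 13.7% had more. At equal length by fold these shares were 33.4% and 41.0% of 17460 genes, by −log10 p 36.4% and 37.3%, and with the top 10000 peaks of each list 30.5% and 31.4%. The excess of genes with more peaks in cKO basal at equal length thus depended on the ranking. Shortening by fold removed WT basal peaks with a median background of 10.52 fragments and 8.62% above 15, and kept peaks with a median of 9.54 and 3.53% above 15. In cKO basal, which was kept whole, these values were 10.04 and 4.30%.

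The genes with the largest deficit of cKO basal peaks at equal length were mostly long genes. Anks1b, a postsynaptic protein gene, had 13 peaks in WT basal and 4 in cKO basal, and 4 and 8 in WT KCl and cKO KCl. Dpp6, an auxiliary subunit of potassium channels, had 14 and 5, with 9 in each KCl list. The Rap regulator gene Sipa1l1 had 9 and 1, with 7 in each KCl list. Prkce, a protein kinase C gene, had 12 and 4, with 4 in WT KCl and 11 in cKO KCl. Sox5, a transcription factor gene of deep-layer neurons, had 13 and 5, with 6 in WT KCl and 9 in cKO KCl. The last 3 of the 8, Gm37013, Gm38666 and Gm38667, cover 1 locus on chromosome 18. It holds 57 clustered protocadherin genes, whose products give neurons their surface identity, and had 17 and 9 peaks, with 11 in WT KCl and 19 in cKO KCl. By −log10 p the WT basal counts of these 8 genes were 7 to 16, all above those of cKO basal. Genes of such length can hold many peaks: Anks1b spans 1100 kb and Dpp6 910 kb.

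Of the 8 genes with the largest excess of peaks in cKO basal at equal length, 3 lay in places of very high local background. Cwc22, a splicing factor gene, had 2 WT basal peaks at equal length and 42 in cKO basal, but 37 in the deposited WT basal list and 30 by −log10 p. The median background of its peaks was 57.5 fragments in WT basal and 77.5 in cKO basal. Eif4enif1, a regulator of messenger RNA storage, and its neighbour Sfi1 had 2 and 3 peaks against 14 and 13, but 13 each by −log10 p, with backgrounds of 67.7 to 71.7. By −log10 p the counts of the last 2 genes thus nearly met those of cKO basal.

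The neighbours Itln1 and Cd244a had 9 and 8 WT basal peaks against 20 and 17, and 16 and 15 by −log10 p. Trak1, an adaptor for the transport of mitochondria along axons, had 3 against 13, and 6 by −log10 p. Nav2, a microtubule-associated neuron navigator gene, had 6 against 18, and 8 by −log10 p. Bicra, which encodes a subunit of the BAF complex form that contains Brd9, had 2 against 11, and 4 by −log10 p. The excess at Trak1, Nav2 and Bicra was thus present with both rankings, at backgrounds of 11.2 to 13.2 fragments. In the deposited WT basal list, however, Nav2 had 22 peaks, above the 18 of cKO basal, and Trak1 and Bicra had 10 each against 13 and 11.

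Activity genes were described with the same counts. Rapid response genes are transcribed soon after neurons become active. Of 20 such genes, 3 had fewer peaks in cKO basal at equal length and 13 had more, with a median difference of 1. Over all genes 33.4% had fewer and 41.0% more, with a median of 0. Klf4 had 1 peak in WT basal and 5 in cKO basal, Egr1 2 and 5, Fosb 4 and 6, and Egr2 3 and 1. In the deposited WT basal list these genes had 4, 3, 8 and 4 peaks, so Fosb had more there than in cKO basal. In the deposited lists 14 of the 20 genes had fewer peaks in cKO basal and 4 more, beside 67.9% and 13.7% of all genes. By −log10 p, 4 of the 20 genes had fewer and 10 more, beside 36.4% and 37.3%. With the top 10000 peaks of each list 7 had fewer and 5 more of 18, beside 30.5% and 31.4%. The direction thus turned with the length. Of 18 delayed response genes with a peak, 11 had fewer and 4 more, with a median of −1, and by −log10 p 12 and 4. Bdnf, the neurotrophin gene, had 2 and 0, Crem 4 and 2, and the clock gene Per1 6 and 9. In the deposited WT basal list Per1 had 9 peaks too. With the top 10000 peaks it was 4 fewer and 2 more of 11 delayed response genes. In the deposited lists 13 of the 18 had fewer and 2 more.

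BAF subunit genes leaned to more peaks at equal length, 16 of 29 against 8 with fewer, and by −log10 p 12 against 9, near the background over all genes. Arid1b, a subunit of canonical BAF, had 7 and 13 peaks, Bcl11b 3 and 7, and Dpf3, part of neuronal BAF, 7 and 3. In the deposited WT basal list these genes had 13, 8 and 15 peaks, so none of them had fewer there than in cKO basal. The gene-end peak of Smarca2, the alternative ATPase, held 82 fragments in WT basal and 59 in cKO basal, and 55 and 76 in WT KCl and cKO KCl. At Actl6a, the progenitor counterpart of BAF53b, the values were 102 and 70, with 59 and 71. The gene end of Actl6b itself held 35 and 40 fragments, with 29 in WT KCl and no peak in cKO KCl.

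Lists of neuronal genes varied around the background of 33.4% fewer and 41.0% more. Of 18 excitatory neuron genes with a peak, 6 had fewer and 6 more, with Sox5 (13 and 5) and Nfia (12 and 7) against Tbr1 (1 and 6) and Cux1 (3 and 7). Inhibitory neuron genes had 4 fewer and 7 more of 17, synapse genes 8 and 11 of 22, calcium and activity signalling genes 9 and 10 of 24, sodium and potassium channel genes 3 and 7 of 17, and axon guidance genes 8 and 6 of 19. The adhesion gene Nrxn3 had 13 and 7 peaks, the NMDA receptor gene Grin2b 9 and 4, and the scaffold gene Shank2 3 and 8. In the deposited WT basal list Shank2 had 13 peaks and Cux1 10, above the 8 and 7 of cKO basal. Tbr1 had 3 there, below the 6 of cKO basal. At equal length members of 1 pathway thus stood on both sides. With the top 10000 peaks the counts fewer and more were 4 and 5 of 14 excitatory, 6 and 3 of 12 inhibitory, 10 and 8 of 20 synapse, 11 and 5 of 24 calcium and activity signalling, 5 and 7 of 16 channel and 8 and 4 of 18 axon guidance genes. In the inhibitory, synapse and calcium lists the larger of the 2 counts was thus the other one than at 19921 peaks.

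The other lists stand beside the same background at equal length, 33.4% of all genes with fewer peaks in cKO basal and 41.0% with more. Neural progenitor genes had 5 fewer and 8 more of 17, and cell cycle genes 5 and 7 of 17. DNA damage and repair genes had 6 and 7 of 22, and RNA methylation genes 6 and 6 of 14. Astrocyte genes had 4 and 3 of 10, oligodendrocyte genes 3 and 7 of 10, microglia genes 3 and 6 of 10, vascular genes 3 and 4 of 8, and developmental genes silent in cortex 4 and 7 of 22. Housekeeping genes had 1 fewer, Eef1a1 (6 and 1), and 10 more of 14, and by −log10 p 1 and 11. In the deposited lists 7 of the 14 had fewer and 5 more, beside 67.9% and 13.7% of all genes. With the top 10000 peaks, housekeeping genes had 6 fewer and 3 more, so this list too turned with the length. The summed counts of the astrocyte list were 24 and 23 peaks, of the microglia list 15 and 26.

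Gene-end peaks gave a second view, taken from the deposited lists and so subject to their difference in length. There 12.2% of 20665 genes had a gene-end peak in WT basal and none in cKO basal, and 4.33% the reverse. At equal length by fold these shares were 7.24% and 7.80%. In the deposited lists, 159 of the 340 listed genes had one in both, 49 in WT basal alone and 22 in cKO basal alone. Of those 49, 23 had one in WT KCl, 24 in cKO KCl and 18 in neither KCl list. Over all 2529 genes with a gene-end peak in WT basal alone these numbers were 1053, 1392 and 867.

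Of 20 rapid response genes, 11 had a gene-end peak in both deposited lists, 1 in cKO basal alone and 0 in WT basal alone. At equal length these numbers were 8, 4 and 0. Fos, an AP-1 subunit gene, had 47 fragments in WT basal, 29 in cKO basal, 37 in WT KCl and 40 in cKO KCl. Jun, its partner, had 71, 66, 53 and 66 in that order. The gene end of Fos was therefore lowest in cKO basal, at fold 2.19, among the weakest peaks of that list, while that of Jun was alike in both genotypes. Egr1 had a gene-end peak in cKO basal (58 fragments) and none in WT basal, whose nearest peak there ended just beyond the 1 kb limit. Of 19 delayed response genes in the deposited lists, 5 were in WT basal alone, namely Nptx2 (30 fragments), Atf3 (34), Nrn1 (27), Plk2 (30) and Sik1 (54). A further 1, Gpr3, was in cKO basal alone (30). Over all genes, 12.2% were in WT basal alone and 4.33% in cKO basal alone. At equal length 2 delayed response genes were in WT basal alone and 1 in cKO basal alone, beside 7.24% and 7.80% of all genes.

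Of 22 DNA repair genes, 3 had a gene-end peak in WT basal alone, beside 12.2% of all genes, and 2 in cKO basal alone, beside 4.33% of all genes. Parp2 (74 fragments), Brca2 (35) and its partner Palb2 (41) were those of WT basal, and Fancd2 (37) and Trp53bp1 (26), which acts in the choice of repair pathway, those of cKO basal. Palb2 had 44 fragments in WT KCl and 53 in cKO KCl. The strong gene ends of Atm, the double-strand break kinase, held 79 and 59 fragments, and of Brca1 68 and 53. At Rad1, a subunit of a checkpoint clamp, they held 77 and 41, with 64 in cKO KCl and no peak in WT KCl. Matched gene-end pairs as a whole had medians of 45 fragments in WT basal and 40 in cKO basal. Of 14 RNA methylation genes, Mettl14 and Zc3h13 (33) were in WT basal alone, and both had a peak in each KCl list.

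Among neuronal lists, inhibitory neuron genes had the most gene ends in 1 list alone, 6 of 17 in WT basal and 3 in cKO basal. The WT basal ones included the transcription factor genes Dlx5 (57 fragments) and Dlx2 (38), the neuropeptide gene Sst (37) and Calb1 (39), and the cKO basal ones were Dlx1 (34), Npy (37) and Sp8 (39). Of 20 excitatory neuron genes, Fezf2 was in WT basal alone (34), and Tbr1 (36) and Neurod1 (26) in cKO basal alone. Over all genes, 12.2% were in WT basal alone and 4.33% in cKO basal alone. Genes of interneurons thus appeared on both sides, and 5 of the 6 WT basal ones had a peak in cKO KCl, as did 1392 of the 2529 genes of that kind overall. In the axon guidance list, Epha4 (38), Efna5 (47) and Plxna4 (33) were in WT basal alone and all 3 had a peak in both KCl lists. At equal length 5 inhibitory neuron genes were in WT basal alone and 3 in cKO basal alone. For excitatory neuron genes these numbers were 1 and 4, and for axon guidance genes 2 and 2, beside 7.24% and 7.80% of all genes.

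Of 11 astrocyte genes, 4 had a gene-end peak in WT basal alone, beside 12.2% of all genes. They were Gfap with 42 fragments, the folate enzyme gene Aldh1l1 with 37, the glutamate transporter gene Slc1a3 with 28 and S100b with 37. None of these 4 had one in either KCl list, against 34.3% of all genes with a gene-end peak in WT basal alone (867 of 2529). Their folds, from 2.56 to 3.27, lay around the list median of 2.82. The astrocyte genes Slc1a2, Aldoc, Glul and Sox9 had a gene-end peak in all 4 lists, and the markers were missing from WT KCl, the same genotype, as well as from the cKO lists. Whether the share of astrocytes differed between the cultures was not tested. Developmental genes silent in cortex resembled this pattern, with 6 of 23 in WT basal alone, beside the same 12.2% of all genes. Of those 6, 5 were in neither KCl list, among them Hoxb4 and Hoxb8 of 1 Hox cluster, Tbx5 and Pdx1. At equal length 2 of the 23 developmental genes were in WT basal alone and 3 in cKO basal alone. Of the 11 astrocyte genes these numbers were 3 and 1, beside 7.24% and 7.80% of all genes.

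Along the genome the difference between the lists was even. The ratio of cKO basal to WT basal peaks lay between 0.568 on chromosome 5 and 0.635 on chromosome 10. Unmatched shares per chromosome were 65.7% to 71.0% for WT basal and 45.0% to 50.9% for cKO basal. At equal length the ratio ranged from 0.844 on chromosome 3 to 1.16 on chromosome 11.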

How the data were processed

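Nucleosome-free peaks from WT basal, cKO basal, WT KCl and cKO KCl cultures were analysed, 1 deposited list for the 2 libraries of each condition. Per the labels' protocols, 50000 cells per library were transposed, amplified for 7 to 9 cycles and sequenced with paired 75-bp reads. Per the submitters' processing notes, Bowtie2 and MACS2 were used on GRCm38 (mm10). Not given in the sources used here were versions, settings, duplicate removal, any Tn5 offset and the way libraries were combined. The authors deposited for each peak the fold of its summit over the local background (a ratio), the −log10 p and −log10 q, a score and a summit offset, as their caller gave them. These are the authors' values and were used to describe, rank or filter peaks within a list.

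Pileup and background were solved from fold and −log10 p with a pseudocount of 1, giving whole pileups for 100% of peaks within 0.001 in −log10 p. The read total is unknown, and the recovered background stood in for depth. Peaks on chromosomes 1 to 19 were matched by an overlap of at least 1 bp. For equal length WT basal was shortened to its 19921 peaks of highest fold. Genes were the 20665 protein-coding genes of the RefSeq table (GRCm38.p6), and 340 of 348 entries of 19 gene lists matched, the rest being X-linked. Exon, intron and UTR classes and peak sequences were not analysed here. Python 3.11.15, numpy 2.4.6, pandas 2.3.3 and scipy 1.17.1 were used, and the scripts were tested on simulated data.

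The members and gene lists were chosen with earlier results of these data known. Named sites were, per direction, the 8 gene-end and 8 other unmatched peaks of highest fold. Named genes were the 6 largest moves of rank each way among gene-end pairs in the top 50% of at least 1 list, the 8 largest differences in peak number each way, and up to 4 members per list with the largest difference, not all of which are printed. Some listed genes are not reported here. Other listed genes were named for their gene-end peaks after their values were seen. Promoters were printed for the first 3 named gene-end genes per direction whose listed promoter lay under the peak, since the rule's first 3 did not all have one. Alternatives were the ranking, the overlap, the distance limits, the list length, a stricter q and the sex chromosomes. No columns of unmatched samples were present (0).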

Additional observations from a re-analysis of the deposited data

Results flagged for a closer look

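The genotypes differed in opposite directions in the basal and the KCl lists. On chromosomes 1 to 19 the difference in peak number, cKO minus WT, was −13407 between the basal lists and 5100 between the KCl lists. The difference between these 2 contrasts was not tested, because each condition has 1 list. The background floor was 9.30 and 9.47 fragments in WT basal and cKO basal and 8.23 and 8.36 in WT KCl and cKO KCl, so within each treatment the genotypes were close in this measure of depth. Median folds were 2.82 and 2.88 in the basal lists and 3.03 and 3.08 in the KCl lists. Their part in the peak numbers was not tested.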

How the results depend on the processing

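Of 37 alternative values, 8 moved by less than the counting error, 26 moved by more and 3 changed sign. Unmatched shares in the deposited lists, 68.9% and 47.5% for WT basal and cKO basal, were 70.7% and 50.5% with an overlap of 50% of the shorter peak, 64.9% and 42.8% with gaps of up to 500 bp allowed, and 54.7% and 27.6% for peaks with −log10 q of at least 5. At equal length, 55.9% and 55.0% became 54.6% and 53.8% when ranked by −log10 p, 57.6% and 56.8% with the 50% overlap, 41.3% and 40.4% for 10000 peaks, and 30.8% and 30.4% for 5000. The gene-end share of WT basal minus that of cKO basal, −1.24 points, was −0.105 with a limit of 500 bp and −2.38 with 2 kb. It changed sign to 0.632 by −log10 p, 0.89 for 10000 peaks and 0.5 for 5000, so its direction was not stable. At matched fold the excess of other sites over gene ends was 21.8 points (WT basal) and 25.2 (cKO basal) by −log10 p, against 25.1 and 28.0. Genes with fewer and with more peaks in cKO basal, 33.4% and 41.0%, were 29.4% and 35.3% within 10 kb, 35.6% and 43.9% within 100 kb, and 36.4% and 37.3% by −log10 p. With the 10000 top peaks of both lists, an alternative added after the data were seen, they were 30.5% and 31.4%. The cause of these moves was not tested. No paired analysis was possible because each condition has 1 deposited list. Most peaks rest on few fragments, with a median of 32 in WT basal and 33 in cKO basal, so a small gain or loss of fragments can put a peak on either side of the calling limit.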
